A study of Mus musculus with 8 samples.

Results

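Forkhead genes encode transcription factors that share a winged-helix DNA-binding domain. The deposited gene table was searched for symbols made of Fox, a letter from a to s and a number, with at most 1 letter after it, and 40 of its 33495 rows were kept. Of these, 20 genes had at least 40 reads summed over the 8 libraries and are described, 13 had 1 to 39 reads, and 7 had none. RNA was sequenced from outflow tracts of CD-1 mouse hearts, the segment that carries blood out of the ventricles. The 4 mutant libraries came from tracts with a Mef2c knockout restricted to the anterior heart field (AHF), a progenitor pool that builds the outflow tract and right ventricle, and the 4 others came from wild-type tracts. The labels used here name neither the Cre line that drives the deletion nor the stage, the embryos per sample or the litters. P-values therefore measure only the spread between these libraries, part of which may be technical.

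The family falls into classes with different known roles. FOXO factors (Foxo1, Foxo3, Foxo4, Foxo6) act downstream of insulin and growth factor signals: AKT phosphorylation moves them out of the nucleus, and without it they turn on genes of cell cycle arrest and stress defence. FOXC factors (Foxc1, Foxc2) act in pharyngeal mesoderm, vessels and the outflow tract, FOXP factors (Foxp1, Foxp2, Foxp4) in heart and lung development, FOXM1 in mitotic gene expression, and FOXK factors in repression of autophagy genes. FOXA factors and FOXE1 mark endoderm and its thyroid derivative, and FOXF factors mark splanchnic mesoderm next to gut endoderm under hedgehog signals.

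Every described gene codes for the recognition helix, the part of the domain that enters the major groove of DNA. The coding stretch of 45 bases that holds it is shown for a choice of the members on which the results turn, because the bases shared between close relatives bear on how far reads can be told apart. They were read from GENCODE transcripts of GRCm38, 5′ to 3′, and capitals mark the codons of the asparagine and of the arginine-histidine pair of the motif.
Foxo1: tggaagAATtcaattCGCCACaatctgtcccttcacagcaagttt
Foxo3: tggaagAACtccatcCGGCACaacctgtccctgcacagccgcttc
Foxo4: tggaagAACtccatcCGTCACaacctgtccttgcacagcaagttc
Foxc1: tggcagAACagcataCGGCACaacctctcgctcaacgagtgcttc
Foxc2: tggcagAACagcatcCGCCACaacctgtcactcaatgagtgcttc
Foxp4: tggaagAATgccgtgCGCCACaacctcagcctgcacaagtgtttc
Foxk1: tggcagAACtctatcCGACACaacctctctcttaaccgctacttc
Foxk2: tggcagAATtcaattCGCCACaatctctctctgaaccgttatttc
Foxe1: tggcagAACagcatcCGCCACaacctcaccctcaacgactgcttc
Foxf1a: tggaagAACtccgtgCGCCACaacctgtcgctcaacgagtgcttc
Foxf2: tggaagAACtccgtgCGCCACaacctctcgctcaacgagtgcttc
Over all 190 pairs of the 20 described genes, 24 to 42 of the 45 bases were identical, with a median of 32, although 8 to 15 of the 15 encoded residues were. Foxc1 and Foxc2 encoded the same 15 residues with 40 identical bases. Over whole coding sequences, the longest run shared by any of these 190 pairs was 53 bases, between Foxc1 and Foxc2. Among these pairs it was the only one that shared 40 bases or more in a row. Foxf1a, under the 40-read limit, was in none of these pairs. Its stretch shown above is nearly the same as that of Foxf2, and the longest run it shares with Foxf2 was not measured. Neither read length nor counting tool was stated in the sources used here, so how reads from such shared runs were assigned is unknown.

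Total counts ran from 7138732 to 11012246 per library. Mef2c, the targeted gene, had 1390, 1150, 1227 and 1423 reads in mutant libraries 1 to 4, against 1207, 946, 791 and 728 in wild-type libraries 1 to 4. Its log2 fold change of 0.32 ± 0.105 (SE) was not called (edgeR adjusted p = 0.212). This count covers undeleted exons too and does not check the labels, whereas the exon with the largest change had a log2 ratio of mutant over wild type of -3.30 in the authors' deposited table. The outflow tract and myocardial markers Isl1, Hand2, Sema3c, Tnnt2, Myl7 and Acta2 were present in every library, while Tbx1 stood at 0 to 2.19 CPM. The list of 9 such markers summed to 4322 to 5058 CPM in mutant and 4986 to 6507 CPM in wild type, with overlap. Of its 8 tested genes 1 was called lower, beside 0.942% of all tested genes. This was Myl7 (log2 fold change -0.97, edgeR adjusted p = 0.00309), and the list's median log2 fold change was -0.29. Wild-type library 4 stood apart in several forkhead genes and in endoderm markers, as described below for each. Liver and yolk sac markers summed to 21.7 to 72.6 CPM in mutant and 7.51 to 18.9 CPM in wild type, without overlap. Of 4 tested markers, 0 were called by edgeR and 4 had an unadjusted p under 0.05, beside 11.4% of all tested genes. The median log2 fold change of these tested markers was 2.39. Epicardial markers summed to 204 to 273 CPM in mutant and 115 to 218 CPM in wild type. Of 6 tested, 1 was called higher, Aldh1a2 (log2 fold change 1.25, edgeR adjusted p = 0.0361), beside 0.562% of all tested genes. By edgeR 4 of the 6 had an unadjusted p under 0.05, and the list's median log2 fold change was 0.48. Reads of 4 Y-linked genes summed to 9 in mutant library 1 and 3 in wild-type library 4, against 1595 to 2126 in the other 6 libraries. The part of these marker lists and of the Y-linked difference in the forkhead values was not tested. In bulk tissue, fewer cells of a type and less RNA per cell cannot be told apart.

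Levels within the family were compared as CPM (counts scaled to the TMM-adjusted library size) per kilobase of the deposited exon length. The order depends on that length. In CPM alone Foxp1 stood highest in wild type at 127 ± 9.56, with Foxn3 at 81.9 ± 5.36 (SD, n = 4). In mutant libraries Foxn3, a checkpoint-linked repressor, stood highest at 25.9 ± 0.903 CPM per kilobase, followed by Foxp4 at 22.0 ± 3.34, Foxk2 at 21.2 ± 1.33, Foxm1 at 17.8 ± 1.07 and Foxk1 at 16.3 ± 0.653 (SD, n = 4). The same 5 genes stood highest in wild type, with Foxn3 at 28.9 ± 1.89 CPM per kilobase (SD, n = 4), and its lowest library lay above the highest of Foxk2, the next gene. Foxk2 stood at 22.0 ± 1.73 and Foxp4 at 19.0 ± 4.62, followed by Foxm1 at 16.9 ± 1.11 and Foxk1 at 16.7 ± 1.00 (all SD, n = 4). These 4 overlapped neighbour by neighbour, and every wild-type library of Foxk1 lay above those of Foxj3 (13.5 ± 0.573). Foxo1 (11.3 ± 1.17), Foxp1 (10.7 ± 0.806), Foxo3 (9.41 ± 1.93), Foxj2 (7.18 ± 0.875), Foxc2 (6.89 ± 1.47), Foxo4 (6.29 ± 0.680) and Foxn2 (6.0 ± 0.510) followed, each overlapping the next. Below Foxn2, and with no overlap with it, came Foxp2 at 3.16 ± 1.48, Foxc1 at 2.55 ± 1.1, Foxp3 at 1.30 ± 0.301 and Foxo6 at 0.504 ± 0.267 CPM per kilobase. The summed level of all 40 genes was 1060 ± 38.0 CPM in mutant and 1054 ± 60.6 CPM in wild type (SD, n = 4 each).

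**Figure D1:**
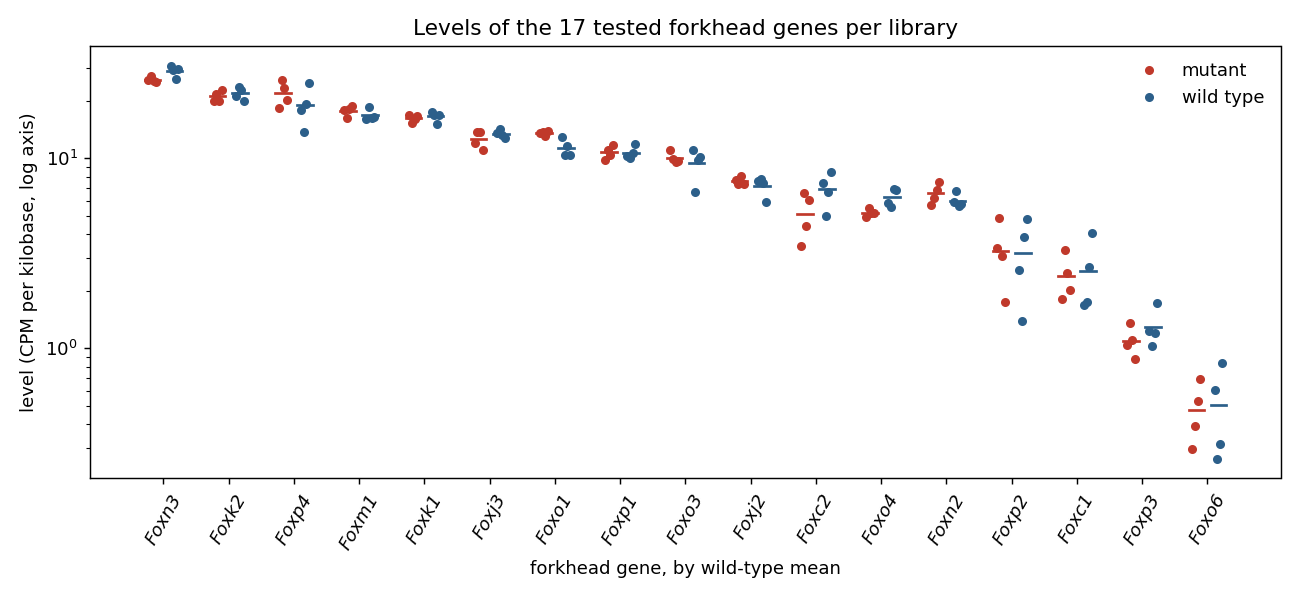
Level of each of the 17 tested forkhead genes in CPM per kilobase on a log axis, with mutant libraries in red on the left and wild-type libraries in blue on the right of each pair, dots for single libraries and lines for group means. Genes run by wild-type mean from Foxn3 at 28.9 to Foxo6 at 0.504, and mutant and wild-type dots are apart only for Foxo1 and Foxo4.

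The comparison of mutant with wild type asks which forkhead transcripts differ when Mef2c is lost from the AHF. None of the 17 forkhead genes that passed the filter on low counts was called: 0 had an adjusted p under 0.05 in the quasi-likelihood test of edgeR, adjusted by Benjamini-Hochberg over 14757 genes, and 0 by DESeq2 or limma-voom. Across all tested genes, 222 were called, or 1.5%, of which 83 were higher (0.562%) and 139 lower (0.942%). At an unadjusted p under 0.05, 2 forkhead genes passed, Foxo1 and Foxo4, against 11.4% of all genes, and the same 2 were the only ones whose groups did not overlap, against 6.72% of all genes. The 17 log2 fold changes lay between -0.43 and 0.26, with 8 above 0 and 9 below, and their median was -0.034 beside -0.0059 over all tested genes. Their median size was 0.09, against 0.14 over all tested genes, and 11 of the 17 lay within 0.15 of 0. Their median coefficient of variation among wild-type libraries was 10.8%, against 16.4% over all tested genes. Foxe1, Foxa1 and Foxf2 did not pass the filter and were not tested.

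**Figure D2:**
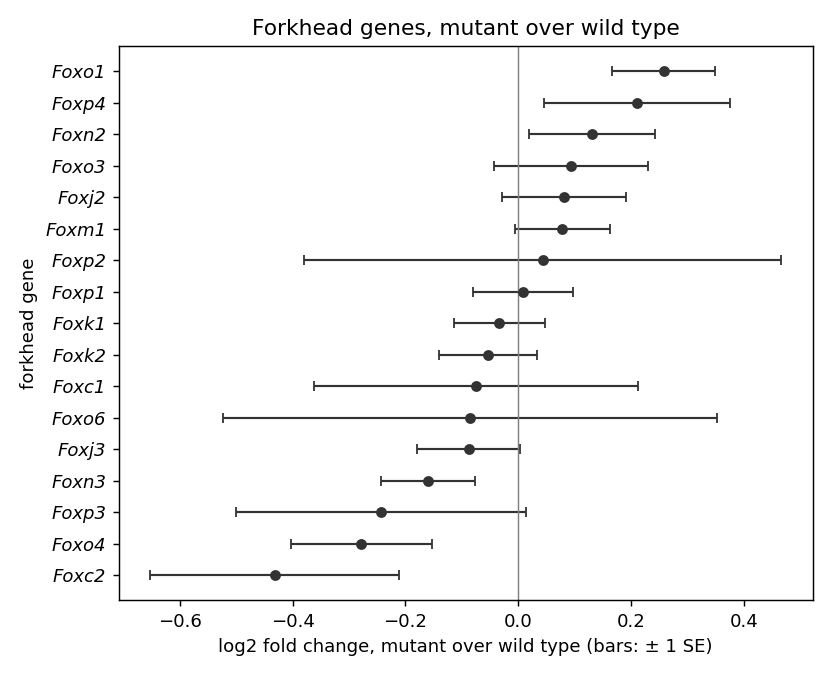
Log2 fold change of mutant over wild type for the 17 tested forkhead genes, ordered by size, with bars of 1 SE. Foxc2 is lowest at -0.43 and Foxo1 highest at 0.26, and none was called.

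Foxo1 (chromosome 3, 52072259 to 52154031, plus strand, mm9), the FOXO factor known for its part in vessel development, had 75.2, 76.0, 72.7 and 77.3 CPM in mutant libraries 1 to 4, against 71.6, 58.2, 64.2 and 57.7 CPM in wild-type libraries 1 to 4. All 4 mutant values lay above all 4 wild-type values, by a narrow margin against wild-type library 1. The log2 fold change was 0.26 ± 0.092 (SE) with an unadjusted p of 0.0154 and an adjusted p of 0.282 (edgeR), and the adjusted p ranged from 0.167 to 0.579 over the 21 alternatives. Foxo4 (chromosome X, 98449867 to 98456212, plus strand, mm9), a related factor, had 17.2, 19.1, 18.1 and 17.9 CPM in mutant and 20.4, 19.4, 24.1 and 23.8 CPM in wild type. The 4 mutant values lay below the 4 wild-type values, and the log2 fold change was -0.28 ± 0.125 (SE; edgeR adjusted p = 0.427; 0.332 to 0.730 over the alternatives). Foxo3, the family's other widely expressed factor, had 70.3 ± 4.74 CPM in mutant and 65.8 ± 13.5 CPM in wild type (SD, n = 4), with overlap between groups. Wild-type library 2 held the lowest Foxo3 level, 46.2 CPM, where the other 7 libraries held 66.8 to 77.2 CPM. Foxo6 had 1.24 ± 0.445 CPM in mutant and 1.32 ± 0.698 CPM in wild type (SD, n = 4), and its log2 fold change of -0.09 carried an SE of 0.438.

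The genes around FOXO factors were examined through a list of 32 upstream regulators, all tested, and a list of 35 target genes, of which 29 were tested. Irs1, the insulin receptor substrate, was the 1 upstream gene called higher, and 0 were called lower, beside 0.562% and 0.942% of all tested genes. Over all the linked lists, 2 of 170 distinct tested genes were called, beside 1.5% of all tested genes. Irs1 had 238, 198, 215 and 213 CPM in mutant and 176, 136, 134 and 151 CPM in wild type. The groups did not overlap, and the log2 fold change was 0.53 ± 0.104 (SE; edgeR adjusted p = 0.0240). The call was lost on leaving out mutant library 1 (adjusted p = 0.100), mutant library 3 (0.0864) or wild-type library 3 (0.0745), all with edgeR, while the fold change stayed between 0.48 and 0.62 over the leave-one-out fits. Pik3cb, a PI3-kinase catalytic subunit, showed a log2 fold change of 0.26, Sgk1, a kinase of the AKT branch, 0.31, and Ywhaz, a 14-3-3 protein and the gene of the list with most reads over the 8 libraries, 0.05. The list's median log2 fold change was 0.03.

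Among the 29 tested FOXO targets, 0 were called in either direction by edgeR, 6 had an unadjusted p under 0.05 (beside 11.4% of all tested genes), and the median log2 fold change was 0.01. Pdk4, which curbs glucose oxidation, had 25.0, 22.4, 26.5 and 24.8 CPM in mutant and 19.0, 12.4, 17.6 and 19.0 CPM in wild type, with a log2 fold change of 0.53 ± 0.149 (SE; edgeR adjusted p = 0.124). Cdkn1a, the cell cycle inhibitor p21, had 24.5, 16.4, 24.1 and 30.9 CPM in mutant and 55.0, 30.8, 42.8 and 31.0 CPM in wild type, and its log2 fold change was -0.74 ± 0.220 (SE; edgeR adjusted p = 0.177; 0.0471 with DESeq2). Txnip, which binds thioredoxin, showed a log2 fold change of 0.39 (edgeR adjusted p = 0.331), and Insr, the target with most reads over the 8 libraries, 0.04. The 3 targets with the smallest p thus differed in sign.

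Foxc2 had 8.0, 15.2, 10.2 and 13.9 CPM in mutant and 17.1, 11.6, 15.4 and 19.7 CPM in wild type. Wild-type libraries 1, 3 and 4 exceeded every mutant value and wild-type library 2 fell among the mutants, and the log2 fold change was -0.43 ± 0.220 (SE; edgeR adjusted p = 0.508), the lowest of the 17. Foxc1 had 7.22, 13.2, 9.91 and 8.09 CPM in mutant and 6.77, 7.01, 10.7 and 16.1 CPM in wild type, and its log2 fold change of -0.08 was smaller than its SE of 0.288. Without wild-type library 4 it was 0.24 (edgeR adjusted p = 0.740). The deposited rows for Foxc2 and Foxf1a lie inside the span of a row named Usp10 on the same strand (10548 reads), so their assignment is uncertain. Foxc1, Foxf2 and Foxq1 lie within 252 kb on chromosome 13 (31650306 to 31902504, mm9), and Foxf1a and Foxc2 within 34.4 kb on chromosome 8 (123608374 to 123642792, mm9).

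Of 25 genes linked to FOXC in vessels and the outflow tract, 23 were tested, 1 was called higher (beside 0.562% of all tested genes) and 0 lower, 6 had an unadjusted p under 0.05 (beside 11.4%), and the median log2 fold change was 0.02. The called gene was Msx1, a homeobox factor of outflow cushions, which had 24.0, 25.2, 25.5 and 17.6 CPM in mutant and 13.3, 9.62, 9.77 and 11.2 CPM in wild type, for a log2 fold change of 1.06 ± 0.166 (SE; edgeR adjusted p = 0.00597). All mutant values lay above all wild-type values. The Msx1 call was lost in lane 2 alone (edgeR adjusted p = 0.0828) and without mutant library 1 and wild-type library 4 together (edgeR adjusted p = 0.0614), with fold changes of 1.03 and 1.05. Notch1, a receptor of vessel specification, had 138 ± 3.59 CPM in mutant and 110 ± 10.8 CPM in wild type (SD, n = 4), with a log2 fold change of 0.32 ± 0.0875 (SE; edgeR adjusted p = 0.115; 0.0401 with DESeq2). Dll4, its endothelial ligand, showed a log2 fold change of -1.30 ± 0.385 (SE; edgeR adjusted p = 0.157), with means of 1.85 CPM in mutant and 4.62 CPM in wild type, and Fn1, with most reads of the list, 0.24. The summed level of 9 endothelial markers was 780 to 955 CPM in mutant and 635 to 739 CPM in wild type, without overlap. Of the 9, 1 was called higher, Tek (log2 fold change 0.74, edgeR adjusted p = 0.00130), beside 0.562% of all tested genes. By edgeR 3 of the 9 had an unadjusted p under 0.05, beside 11.4%. Kdr (log2 fold change 0.24) and Flt1 (0.09) overlapped between groups. All 9 were detected in every library. Their part in the Foxc and Foxo1 values was not tested.

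FOXP factors, which act with co-repressors in heart and lung development, were represented by Foxp1, Foxp2, Foxp3 and Foxp4. Foxp1 held 127 ± 9.47 CPM in mutant and 127 ± 9.56 CPM in wild type (SD, n = 4), a log2 fold change of 0.01 ± 0.0888 (SE). Foxp4 held 90.7, 128, 115 and 99.5 CPM in mutant and 88.2, 67.8, 95.5 and 123 CPM in wild type, with overlap and a log2 fold change of 0.21 ± 0.165 (SE; edgeR adjusted p = 0.705). Foxp3, known from regulatory T cells, showed a log2 fold change of -0.24 ± 0.257 (SE) on 2.70 to 4.20 CPM in mutant and 3.16 to 5.33 CPM in wild type. Its row overlaps Ppp1r3f over 15568 bases and Ccdc22 over 1435 bases, both on the opposite strand, and 4930524L23Rik over 1340 bases on the same strand. Use of strand in counting is not given, so these reads may belong to any of these genes. The Foxp1 row overlaps Eif4e3 over 9049 bases and the Foxk2 row overlaps Narf over 363 bases, each on the same strand.

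Foxp2 had the largest SE of the 17 apart from Foxo6. It had 45.5, 65.2, 41.1 and 23.6 CPM in mutant and 34.9, 18.8, 51.6 and 64.8 CPM in wild type, so mutant library 4 and wild-type library 2 were lowest in their groups. The log2 fold change was 0.04 ± 0.423 (SE). Each lane held replicates 1 and 2 (lane 1) or 3 and 4 (lane 2) of both groups, and the mutant over wild-type change of Foxp2 was 1.02 on lane 1 (edgeR adjusted p = 0.136) and -0.86 on lane 2 (edgeR adjusted p = 0.289). The difference between lanes was -1.87 on the log2 scale (lane 2 minus lane 1; unadjusted p = 0.0103, adjusted p = 0.17, edgeR's test of the group by lane term). For Foxc1 the changes were 0.56 and -0.58, with a difference of -1.14 (edgeR adjusted p = 0.223). None of the 17 was called for this term, against 1 of 14757 genes (0.00678%), and 2 had an unadjusted p under 0.05, against 16.6% of all genes. Without a filter on low counts, a setting chosen after the values were seen, Foxp2 and Foxf2 were called for this term, against 4.65% of 24606 genes. The adjusted p of Foxp2 for this term was thus 0.17 with the filter and 1.4e-10 without it (edgeR), so that call depends on the filter. Foxf2 had 33 of its 44 reads in wild-type library 4, so its call rests on 1 library. Tbx5, a T-box factor of chamber and lung mesenchyme, was highest in the same 2 libraries in which Foxp2 was low, at 45 CPM in mutant library 4 and 43.6 CPM in wild-type library 2, and lay between 16.8 and 26.5 CPM in the other 6. What part of the Foxp2 spread goes with that was not tested.

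**Figure D3:**
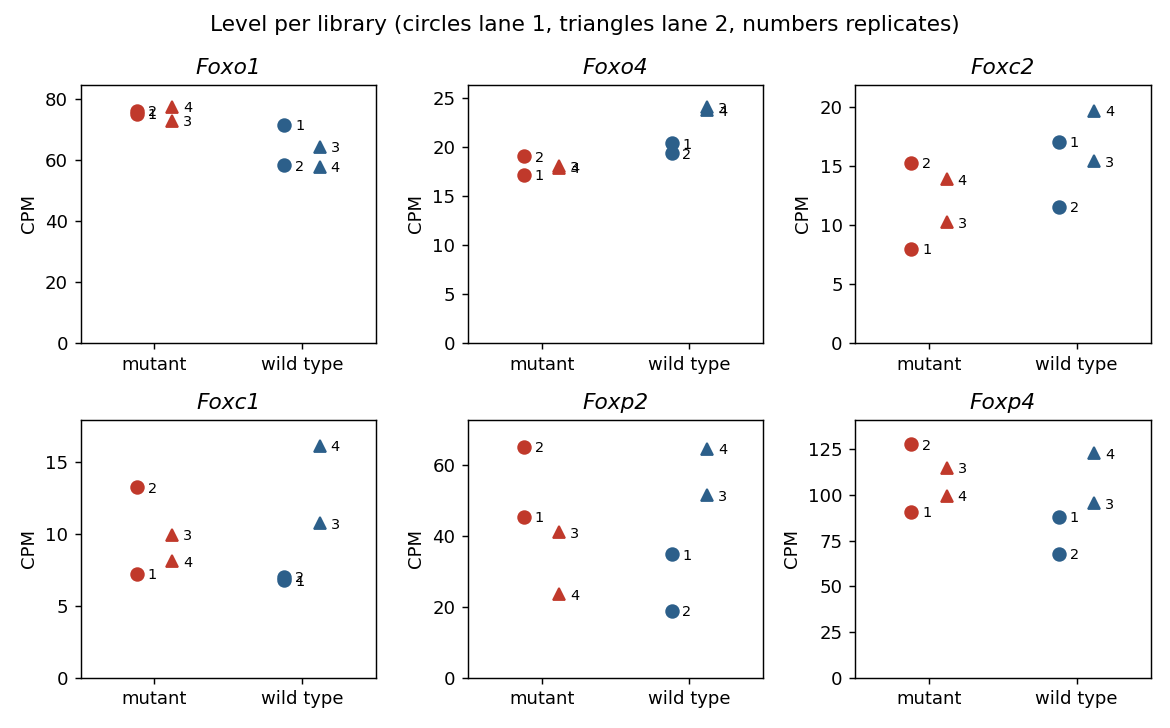
CPM per library of Foxo1, Foxo4, Foxc2, Foxc1, Foxp2 and Foxp4, with mutant on the left and wild type on the right, circles for lane 1, triangles for lane 2 and replicate numbers beside them. Foxp2 runs from 23.6 to 65.2 CPM in mutant and from 18.8 to 64.8 CPM in wild type, while the 4 Foxo1 mutant points lie above the wild-type points.

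Of 18 FOXP partners and co-repressors, 16 were tested and 0 were called by edgeR, beside 1.5% of all tested genes. Of the 16, 1 had an unadjusted p under 0.05, beside 11.4% of all tested genes, and the median log2 fold change was 0.01. Hdac2 (0.20), Chd4 (0.20) and Tbx20 (0.27) carried positive log2 fold changes and Cdkn1a, which is also on the FOXO list, -0.74. Among the partners of FOXK and autophagy genes, 23 were tested and 0 called, beside 1.5% of all tested genes. Of the 23, 1 had an unadjusted p under 0.05, beside 11.4%, and the median was 0.02. Sqstm1, an autophagy receptor, showed a log2 fold change of 0.28 (edgeR adjusted p = 0.374), Becn1 0.21, Dvl1 0.32 and Hcfc1, with most reads, 0.04. Foxk1 itself stood at 118 ± 4.72 CPM in mutant and 120 ± 7.22 CPM in wild type, and Foxk2 at 118 ± 7.42 CPM in mutant and 122 ± 9.61 CPM in wild type (SD, n = 4). Their log2 fold changes were -0.03 ± 0.0802 and -0.05 ± 0.0874 (SE).

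Foxm1 held 95.4 ± 5.73 CPM in mutant and 90.4 ± 5.94 CPM in wild type (SD, n = 4), a log2 fold change of 0.08 ± 0.0839 (SE). Of 30 FOXM1 target genes of the G2 and M phases, all were tested and 0 were called by edgeR, beside 1.5% of all tested genes. Of the 30, 1 had an unadjusted p under 0.05, beside 11.4%, and the median log2 fold change was 0.05. Tpx2, a spindle assembly factor, showed a log2 fold change of 0.24 (edgeR adjusted p = 0.288), Bub1 0.19, Top2a 0.15 and Mki67 -0.08. Foxj2 and Foxj3 held log2 fold changes of 0.08 ± 0.110 and -0.09 ± 0.0917 (SE), and Foxn2 and Foxn3 0.13 ± 0.112 and -0.16 ± 0.0825 (SE). Foxn3 had 72.7, 77.0, 72.5 and 71.1 CPM in mutant and 87.1, 82.3, 74.4 and 83.8 CPM in wild type, so only wild-type library 3 fell within the mutant range. Foxj1, the driver of motile cilia, had 12 reads. Of 33 cilium genes 8 were tested and 0 called by edgeR, beside 1.5% of all tested genes. Of the 8, 2 had an unadjusted p under 0.05, beside 11.4%. Enkur (log2 fold change -0.96) and Spag16 (-0.87) had the smallest p, with Rsph9 at -0.22 and Tuba1a, with most reads, at 0.07.

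Close relatives were also compared within a library, as log2 ratios of CPM per kilobase, for 6 pairs in which no library held 0 reads, so Foxf1a over Foxf2 has no value. Foxn2 over Foxn3 averaged -1.99 ± 0.21 in mutant and -2.27 ± 0.13 in wild type, and Foxc1 over Foxc2 averaged -1.08 ± 0.33 in mutant and -1.50 ± 0.45 in wild type (n = 4, SD). Foxo1 over Foxo3 averaged 0.43 ± 0.10 in mutant and 0.29 ± 0.27 in wild type, and Foxj2 over Foxj3 -0.73 ± 0.14 in mutant and -0.92 ± 0.14 in wild type. Foxp1 over Foxp4 averaged -1.02 ± 0.21 in mutant and -0.80 ± 0.26 in wild type, and Foxk1 over Foxk2 -0.38 ± 0.11 in mutant and -0.40 ± 0.17 in wild type (n = 4, SD). The groups overlapped for all 6 pairs.

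Foxe1, Foxa1, Foxf2 and Foxf1a had most of their reads in wild-type library 4. Foxe1 (chromosome 4, 46356481 to 46359284, plus strand, mm9), a thyroid and pharyngeal endoderm factor, had 0 reads in all 4 mutant libraries and in wild-type libraries 1 to 3, and 85 reads in wild-type library 4 (11.6 CPM), at least 241.5-fold above the other 7 libraries pooled at a floor of 3 counts. Foxa1 (chromosome 12, 58641618 to 58647108, minus strand, mm9), a pioneer factor of endoderm, had 1, 0, 0 and 1 reads in mutant libraries and 0, 0, 0 and 61 in wild-type libraries, a ratio of wild-type library 4 to the other 7 of 260 (69.0 to 2196, 95% counting interval). Foxf2 had 2, 6, 1 and 0 reads in mutant libraries and 1, 0, 1 and 33 in wild-type libraries, and Foxf1a, under the 40-read limit, had 1, 4, 0 and 1 in mutant libraries and 0, 0, 0 and 32 in wild-type libraries. That library was singled out because these genes are high in it, and Foxe1, Foxa1 and Foxf2 passed the 40-read limit only through it, so the ratios are descriptions whose direction that choice fixes. The intervals and floors cover counting error only. With no filter on low counts the 3 described genes had adjusted p of 0.730 for Foxe1, 0.651 for Foxa1 and 0.743 for Foxf2 (edgeR). By contrast, the authors' deposited table gives Foxe1 a p of 1.93e-13 and a false discovery rate of 6.78e-11. It gives Foxa1 a p of 4.06e-08 and a rate of 5.62e-06. Its log2 fold change, modified by USeq to account for high-variance samples, was 0 for both. Its pooled FPKM was 0 in mutant and 0.944 in wild type for Foxe1, and 0.0172 and 0.574 for Foxa1.

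Among the 20 members under 40 reads, wild-type library 4 held 64 of 107 reads, where the other 7 held 3 to 13 each. Just under the limit Foxf1a had 38 reads, then Foxq1 13, Foxj1 12, Foxa2 11, Foxd2 11, Foxs1 9, Foxd1 6 and Foxa3 2, and Foxb2, Foxe3, Foxn1 and Foxr2 had 1 each. Just above it stood Foxf2 with 44, Foxa1 with 63, Foxe1 with 85 and Foxo6 with 91. Foxb1, Foxd4, Foxi1, Foxi2, Foxl2, Foxn4 and Foxr1 had 0 reads, which allows up to 0.278 to 0.413 CPM per library at a floor of 3 counts. Markers of pharyngeal and gut endoderm moved with that library: the summed level of 10 markers was 30.9 to 33.2 CPM in mutant, and 38.1, 33.3, 29.7 and 136 CPM in wild-type libraries 1 to 4. Shh had 68 reads there and 1 in the other 7 libraries, Pax8, a thyroid factor, 127 and 13, Epcam 113 and 20, and Cdh1 271 and 66. Over the whole table, 7 genes (0.0284% of the 24606 with a read) had at least 30 reads and at least 90% of their reads in that library, namely Pax8, Foxe1, Shh, Foxa1, AC124170.1, 4930426D05Rik and Cpne4, and 0 had so in any other library. This limit was chosen after the values were seen. Krt8 was 1.17 times the other 7 libraries, and Nkx2-3 was at or near 0 throughout. The part of the endoderm markers in the Foxe1, Foxa1 and Foxf values was not tested.

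**Figure D4:**
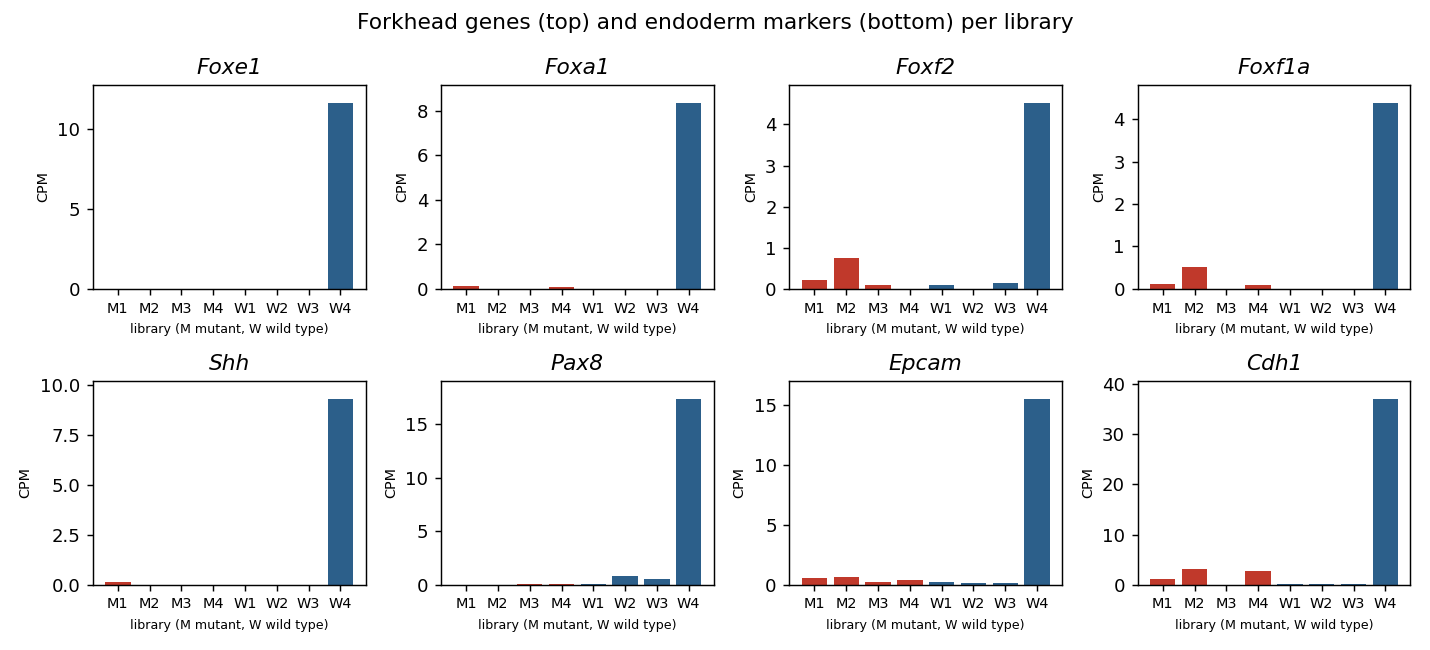
CPM in each library of Foxe1, Foxa1, Foxf2 and Foxf1a (top) and of the endoderm markers Shh, Pax8, Epcam and Cdh1 (bottom), with mutant libraries M1 to M4 in red left of wild-type libraries W1 to W4 in blue. The highest bar is W4 in every panel, at 11.6 CPM for Foxe1 and 9.29 CPM for Shh.

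Hedgehog signals from endoderm act upstream of FOXF factors. A list of 21 genes held members of this pathway and linked genes of other pathways, among them Osr1, Tbx5, Bmp4, Wnt2 and Wnt2b. Of these 21, 15 were tested and 0 called by edgeR, beside 1.5% of all tested genes. Of the 15, 3 had an unadjusted p under 0.05, beside 11.4%, and the median log2 fold change was 0.10. Cdon, a co-receptor, showed a log2 fold change of 0.46 ± 0.140 (SE; edgeR adjusted p = 0.168), Dhh, a ligand, 0.43, Wnt2, a ligand of lung mesenchyme, 0.48, and Bmp4, with most reads, -0.51. In wild-type library 4 the targets Gli1 and Hhip stood 12 times (8.49 to 17) and 12.1 times (7.95 to 18.5) above the other 7 libraries pooled, and Ptch1 2.57 times (2.44 to 2.70, 95% counting intervals). Other genes of the list stood lower there, with Wnt2 at 0.503, Tbx5 at 0.606 and Cdon at 0.825 times the other 7. Splanchnic and lung mesenchyme markers summed to 36.3 to 58.9 CPM in mutant. In wild-type libraries 1 to 4 they summed to 44.4, 57.6, 33.85 and 38.7 CPM. Their part in the Foxf values was not tested.

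The promoters of Foxa1 and Foxf2, which were high in the same library, are shown for the 300 bases from 250 before to 50 after the start (RefSeq, GRCm38.p6), with any motif match in capitals. Foxa1 lies at chr12:57546062-57546361 on the minus strand and Foxf2 at chr13:31625566-31625865 on the plus strand.
Foxa1 promoter: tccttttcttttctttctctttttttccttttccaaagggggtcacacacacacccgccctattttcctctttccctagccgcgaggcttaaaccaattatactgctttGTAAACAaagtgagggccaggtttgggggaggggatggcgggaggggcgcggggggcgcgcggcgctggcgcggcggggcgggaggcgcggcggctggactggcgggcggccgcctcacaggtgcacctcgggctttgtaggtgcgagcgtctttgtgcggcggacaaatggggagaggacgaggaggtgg
Foxf2 promoter: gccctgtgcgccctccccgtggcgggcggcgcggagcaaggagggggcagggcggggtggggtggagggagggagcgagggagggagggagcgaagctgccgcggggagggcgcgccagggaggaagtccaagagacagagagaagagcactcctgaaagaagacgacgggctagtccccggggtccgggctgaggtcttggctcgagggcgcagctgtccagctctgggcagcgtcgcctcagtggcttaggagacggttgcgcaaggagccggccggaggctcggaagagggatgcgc
The motifs searched on both strands were the forkhead motifs TGTTTAC and TGTTTGC, a GLI motif TGGGTGGTC and the MEF2 motif, held by 3.65%, 5.07%, 0.253% and 3.19% of 32851 promoters of this length. Of the 20 described genes, 12 had a promoter in the table, in 15 windows, and 4 had any match. Foxa1 held a TGTTTAC match at -141 from its start, on the other strand and so printed as GTAAACA, Foxj3 and Foxp1 a TGTTTGC match and Foxp3 a MEF2 match, and Foxf2 held none. A match describes letters, not binding. The median GC share was 67.3% in the members' windows and 52.7% over all promoters.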

How the data were processed

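Isolation used a Qiagen kit and library making a NuGEN kit, per the labels. Reads were aligned with TopHat2 2.0.4 to mm9, per the submitters' processing notes. The sources used here state neither the counter nor strand use nor annotation release. The authors deposited raw counts per gene for 8 libraries, 1 pooled FPKM value per group, log2 fold changes made with USeq, and scores that are minus 10 log10 of a p-value or false discovery rate, per the file headers. The exon score's scale is not stated there. The scores were turned back into p-values, and the authors' normalized log2 values were not used. The number of per-sample columns left unmapped was 0.

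Differential testing of counts used edgeR 4.0.16 (R 4.3.3) with filterByExpr, TMM scaling and the robust two-sided quasi-likelihood test with group alone, adjusted by Benjamini-Hochberg over 14757 genes at 0.05. SE is the log2 fold change over the square root of F. DESeq2 1.42.0, limma-voom (limma 3.58.1), other scalings and filters, lane, block and left-out libraries were alternatives. Levels use CPM per kilobase of the deposited exon length. The test was tested on simulated data. It recovered 32% of simulated 1.5-fold changes and 80% of 2-fold changes, so small changes could be missed. Forkhead members, gene lists and marker lists were chosen with earlier results of these data known. Full statistics were given for members with an unadjusted p under 0.05, the 5 highest in wild type and the members of the pairs; from each list, the called genes, the 3 smallest p and the gene with most reads were named. 2 further symbols that match the pattern were left out, and these, 1 member with few reads and some helix sequences are not reported here. Sequences came from GENCODE transcripts of GRCm38 and from RefSeq promoters of GRCm38.p6, and coordinates of the table are mm9, counted from 1. Tables and plots were made in Python 3.11.15 (scipy 1.17.1; pandas 2.3.3; matplotlib 3.10.9).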

Additional observations from a re-analysis of the deposited data

Results flagged for a closer look

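A library was set apart where its gap to the nearest other library of its group exceeded Dixon's 95% critical share of the group's range, on log2 CPM with a prior count of 2. Of 114 groups searched, 12 met this (10.5%), where chance gives about 5% of groups of continuous values. That rate does not hold for genes such as Foxe1, with 0 reads in the other 3 libraries of the group. In wild-type library 4, Foxe1 (3.57), Foxa1 (3.10), Foxf2 (2.24), Foxf1a (2.20) and Foxq1 (0.40) lay above the other wild-type libraries, which held at most -1.45. Foxa2 in mutant library 1 (-1.15), Foxs1 in mutant library 4 (-0.67) and Foxs1 in wild-type library 3 (-0.99) also lay above their groups, on 4 reads or fewer. Among genes of the linked lists, Msx1 was low in mutant library 4 (4.15), Sqstm1 in wild-type library 2 (5.42), Tpx2 in wild-type library 1 (6.77) and Dhh in wild-type library 2 (3.98).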

How the results depend on the processing

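The count of called forkhead genes stayed at 0 in all 21 alternatives. Of 356 single-gene values, 323 kept their direction and their side of the threshold, 31 changed sign where the main value lay within 1 SE of 0 (Foxp2, 0.04 in the main test, was -0.86 in lane 2 alone), and 2 reversed: Foxp4 was -0.034 in lane 2 alone (adjusted p = 0.982, edgeR) and Foxn2 -0.090 in lane 1 alone (adjusted p = 0.785, edgeR). The smallest adjusted p of any member under any alternative was 0.136, for Foxp2 in lane 1 alone. Calls over the whole table ran from 76 with the replicate number as a block to 836 in lane 1 alone. DESeq2 gave 422, lane 2 alone 119, and leaving out mutant library 1, 2 or 3 or wild-type library 1 gave 112, 136, 110 or 145. For the group by lane term, dropping the filter, an alternative chosen after seeing the data, called 2 members, Foxp2 and Foxf2, where 1145 of 24606 genes (4.65%) were called. Of the genes in the linked lists, 2 were called, and DESeq2 called 4, adding Notch1 and Cdkn1a. With the replicate block 0 were called (Msx1 adjusted p = 0.0561, Irs1 0.0635, edgeR), and leaving out each library in turn gave 1 to 2. Same-numbered libraries of the 2 groups had correlations of -0.05, -0.212, 0.222 and -0.287 in their deviations from the group means. With 4 libraries per group, these values cannot decide whether the numbers pair samples. Without mutant library 1 and wild-type library 4 together, the libraries with 9 and 3 Y-linked reads, the adjusted p was 0.0614 for Msx1 and 0.149 for Irs1, in lane 2 alone 0.0828 and 0.0716, and in lane 1 alone Irs1 had 0.0972 (all edgeR). Among the 6 ratios of relatives, leaving out a library gave 0 to 2 pairs without overlap: Foxc1 over Foxc2 without mutant library 4, Foxj2 over Foxj3 without mutant library 2, and Foxo1 over Foxo3 and Foxn2 over Foxn3 without wild-type library 2. The 5 highest wild-type genes stayed the 5 highest with the deposited FPKM, made from the same libraries, and without each wild-type library. The cause of these changes was not tested. Depth limits members under 40 reads, and Foxe1, Foxa1 and Foxf2 rest on 1 library.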

Other observations

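Across the 8 libraries, Foxp2 followed Isl1, the LIM homeodomain factor of outflow tract progenitors, which was chosen after the values were seen. The adjusted p below cover the 17 forkhead genes and not that choice, so these relations are descriptions. How many other genes follow Isl1 as closely was not counted. Isl1 had 27.6, 41.2, 29.1 and 11.1 CPM in mutant and 19.4, 16.9, 36.5 and 59.2 CPM in wild type. Over 17 such relations, one for each tested forkhead gene, Foxp2 had a Pearson r of 0.909 (exact permutation p = 0.00164, Benjamini-Hochberg adjusted 0.0278) and a Spearman rho of 0.929 (exact permutation p = 0.00223, adjusted 0.0379). Without the 2 libraries farthest in Isl1, mutant library 4 and wild-type library 4, r was 0.927. Foxp3 had r of 0.876 (exact permutation, adjusted 0.0405), which fell to 0.590 without these 2, and a rho adjusted p of 0.0871 (exact permutation). Foxc1 had r of 0.824 (exact permutation, adjusted 0.0707). With each lane's mean subtracted, an alternative chosen after seeing the data, Foxp2 had r of 0.907 (exact permutation within lanes, p = 0.00174, the smallest it can give; adjusted over the 17 relations 0.0295) and ranked the 4 libraries of each lane in the order of Isl1. Foxc1 then had r of 0.860 (exact permutation, adjusted 0.0295) and Foxp3 0.877 (exact permutation, adjusted 0.187).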
